A study of Mus musculus with 2 samples.

Results

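The 200 most counted pseudogenes of the livers of acetaminophen (APAP)-poisoned mice were described in 2 pooled RNA libraries. Members were chosen by their counts: among the 3906 rows that the deposited table types as a pseudogene, of 24377 rows in all, the 200 with the largest sum of raw counts over both libraries were taken, with ties broken by identifier. The size of the counts is therefore not a result, whereas the ratio between the libraries, the sequences and the genomic positions were not part of the choice. Each library was a pool of liver RNA from 8 male C57BL/6J mice of 9 to 11 weeks, fasted for 10 h and killed 30 h after 300 mg/kg APAP. The APAP + AZD7986 pool came from mice that also received 4 doses of AZD7986, a small-molecule inhibitor of the lysosomal protease cathepsin C, at 5 mg/kg 12 h before, with, and 12 and 24 h after APAP. The APAP + vehicle pool came from mice given 4 doses of the vehicle on the same schedule. Every mouse of both pools had received APAP, so neither pool shows the healthy liver, and the labels tell the libraries apart only by their titles. Both libraries were made by massive analysis of cDNA ends (MACE), which reads the 3′ end of polyadenylated transcripts and counts each molecule once with the help of molecular tags.

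With 1 library per group there was no replicate and no test. All counts below are raw counts of deduplicated 3′ ends, not divided by transcript length. A ratio divides the count of the AZD7986 pool by the count of the vehicle pool after each was scaled by its size factor (0.910 in the AZD7986 pool and 1.10 in the vehicle pool), and its 95% interval covers counting error only, not the spread between mice or pools. The libraries held 6700838 counts over 21333 genes in the AZD7986 pool and 7657855 counts over 22411 genes in the vehicle pool. The tissue label was met by hepatocyte markers such as Alb and Apoa1, all 10 of which were counted and together took 9.01% of the counts of the AZD7986 pool and 9.68% of those of the vehicle pool. The 8 leukocyte markers took 0.0287% in the AZD7986 pool and 0.0440% in the vehicle pool, the 5 erythroid markers 0.148% and 0.155% in the same order of pools, the 3 endothelial markers 0.00595% and 0.00790%, the 3 cholangiocyte markers 0.00125% (84 counts) and 0.00324% (248 counts), and the 4 pancreatic markers 0.00533% and 0.00337%. Of the pancreatic markers, Amy2a1 was at 0. The part of these differences in the ratios below was not tested, and in bulk RNA fewer cells of a type and less RNA per cell cannot be told apart.

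Pseudogenes are copies of genes that are annotated as not coding for the protein of the original. A processed pseudogene arose when a spliced mRNA was copied back into DNA and inserted elsewhere, so it lacks the introns of its parent and often keeps its whole coding sequence. Genes with abundant mRNA in the germline, above all those of the cytosolic ribosome, have left many such copies. An unprocessed pseudogene is a copy of genomic DNA, and the nuclear genome also carries stretches copied from the mitochondrial genome. A short sequence read that lies in a stretch where pseudogene and parent have the same letters does not tell by itself which of them it came from.

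Of the 200 members, 171 were typed as processed, 16 as transcribed processed and 13 as unprocessed pseudogenes. All 200 were found in the GENCODE M21 annotation of GRCm38, where 189 had a single exon and the length of the locus ran from 87 to 7346 bases with a median of 487. They lay on 20 chromosomes. Another annotated gene overlapped 78 of them, on the same strand for 34 and on the other strand for 46, whereas 122 overlapped none, and 8 shared bases with an exon of another gene. By symbol alone, 79 carried the ending for a pseudogene of a named parent and 117 were predicted genes whose name shows no parent. Each member's transcript was aligned with the protein-coding and mitochondrial rRNA transcripts of rows not typed as pseudogenes. This gave a nearest gene for all 200, with 104 such genes in all. A cytosolic ribosomal protein gene was nearest to 158 members, a mitochondrial-encoded gene to 11, a nuclear gene of the respiratory chain to 7, and genes of other kinds to the remaining members.

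The likeness between the members and these genes is shown here with windows of 60 bases from the end of the coding sequence of the gene, read 5′ to 3′ on the sense strand from the GENCODE M21 transcripts, for the pairs on which the results below turn. Capitals mark bases that differ between the sequences of a set, and a set without capitals is identical letter for letter. The first set is mt-Co3 (chrM:9330-9389, plus strand), the mitochondrial gene of cytochrome c oxidase subunit III, with Gm28437, the most counted member (chr1:24613189-24613248, minus strand). Then come mt-Co2 (chrM:7634-7693, plus strand), of subunit II of the same enzyme, with Gm28661 (chr1:24614885-24614944, minus strand) and Gm13341 (chr2:22587294-22587353, minus strand), Tpt1, of the translationally controlled tumour protein (chr14:75847304-75848101, plus strand, across an exon junction), with Tpt1-ps3 (chr6:99877816-99877875, minus strand), and Rps10, of the small ribosomal subunit (chr17:27630468-27631220, minus strand, across an exon junction), with Rps10-ps1 (chr3:95622713-95622772, plus strand). The last sets are Sod1, of cytosolic superoxide dismutase (chr16:90226198-90226257, plus strand), with Gm8566 (chr6:67206024-67206083, plus strand), and Mup20, of a major urinary protein (chr4:62051292-62051515, minus strand, across an exon junction), with Mup-ps22 (chr11:55123878-55123937, plus strand).
mt-Co3: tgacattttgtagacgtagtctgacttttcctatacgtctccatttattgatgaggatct
Gm28437: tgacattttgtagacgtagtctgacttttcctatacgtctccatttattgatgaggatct
mt-Co2: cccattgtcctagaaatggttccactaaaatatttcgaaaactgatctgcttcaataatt
Gm28661: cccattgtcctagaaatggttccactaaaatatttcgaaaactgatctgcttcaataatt
Gm13341: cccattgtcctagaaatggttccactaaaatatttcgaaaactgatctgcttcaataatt
Tpt1: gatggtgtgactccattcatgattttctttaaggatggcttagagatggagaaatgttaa
Tpt1-ps3: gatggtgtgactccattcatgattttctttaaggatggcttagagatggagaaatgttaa
Rps10: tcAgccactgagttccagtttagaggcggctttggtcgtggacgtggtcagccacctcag
Rps10-ps1: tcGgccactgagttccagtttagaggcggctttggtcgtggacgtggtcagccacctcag
Sod1: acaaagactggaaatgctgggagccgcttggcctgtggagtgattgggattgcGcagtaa
Gm8566: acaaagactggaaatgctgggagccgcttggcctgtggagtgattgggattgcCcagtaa
Mup20: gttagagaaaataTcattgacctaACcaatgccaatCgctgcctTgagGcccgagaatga
Mup-ps22: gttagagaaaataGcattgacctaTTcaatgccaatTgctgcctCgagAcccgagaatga
The mitochondrial sets and the Tpt1 set had 0 differences in these windows, the Rps10 and Sod1 sets had 1 each, and the Mup20 set had 6.

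Over the whole members, the median identity with the nearest gene was 99.1%, and it ran from 83.3% to 100%. To describe what a short read could tell apart, every window of 50 bases of a member was looked for, letter for letter. The search covered the protein-coding and mitochondrial rRNA transcripts of genes not typed as pseudogenes. When the transcripts of every other gene of any type were searched, all windows were found in 35 members. In 28 members every such window occurred in one of the genes not typed as pseudogenes, in 106 members from 50% to under 100% of the windows did, and in 61 members fewer did. No window was shared by 5 members, Gm14513, Gm43841, Gm11408, Gm49138 and Gm16399, whose nearest genes were Rps3, mt-Cytb, mt-Nd6, Rack1 and Cox6c. Counts relative to the nearest gene are given along this scale as a description only, since the counts chose the members. The 28 members whose windows all occurred in such a gene had a median count of 101% of that of the nearest gene, the 106 with 50% to under 100% shared had 70.9%, and the 66 with less had 36.5%. Across all 200 members the median was 63.6%.

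**Figure D1:**
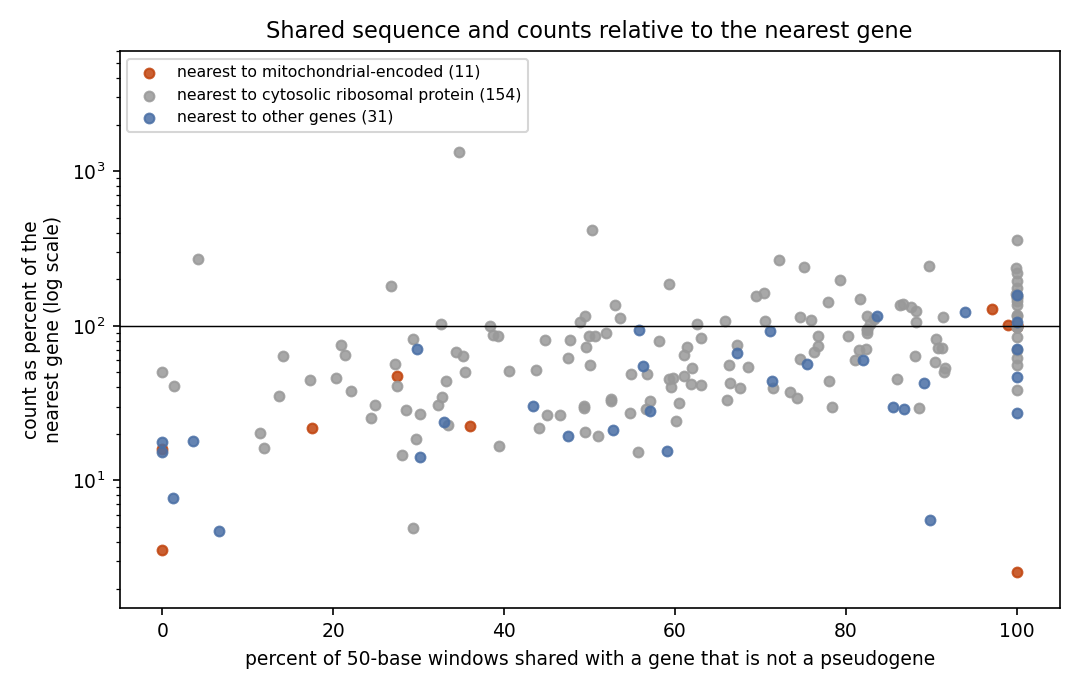
Each point is a member, placed by the percent of its 50-base windows that occur in a protein-coding or mitochondrial rRNA transcript of a gene not typed as a pseudogene (x axis). The y axis (log scale) is its summed count as a percent of that of its nearest gene, with the line at 100%. The median is 36.5% for members that share under 50% of the windows and 101% for those that share all of them, with wide spread at each place. The 4 members nearest to Rpl23a, a gene with hardly any counts, are not drawn.

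The most counted members were nuclear copies of mitochondrial genes, which encode subunits of the respiratory chain and of ATP synthase. The 11 members nearest to a mitochondrial-encoded gene took 3.79% of all counts in the AZD7986 pool and 4.05% in the vehicle pool, about as much as the 189 other members together, which took 3.94% and 3.29% of those pools. Of the 11, 6 lay side by side on the minus strand of chromosome 1, within chr1:24611535-24616197, and 3 on the minus strand of chromosome 2, within chr2:22587291-22590533, where Myo3a, a myosin gene, is annotated on the other strand. Gm43841 lay on chromosome 5 against the strand of Zfp804b, and Gm11408 on chromosome 4 outside any other gene.

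Gm28437, the copy of mt-Co3, had 62482 counts in the AZD7986 pool and 77136 in the vehicle pool, while mt-Co3 itself had 62928 and 76081 in those pools. Gm10925, the copy of mt-Atp6 (ATP synthase subunit 6), had 43413 and 57417 counts, beside 43310 and 56934 for the gene. Gm28661, the copy of mt-Co2, had 39636 and 54659 counts, beside 40554 and 55690 for the gene. In each of these pairs the counts were shared almost evenly, every 50-base window of the copy occurred in the mitochondrial gene, and the match ran to within 3 bases of the end of the mitochondrial transcript. The copy held 49.8% of the counts of the mt-Co3 pair in the AZD7986 pool and 50.3% in the vehicle pool, 50.1% and 50.2% of the mt-Atp6 pair, and 49.4% and 49.5% of the mt-Co2 pair. Gm28438, a copy of mt-Nd3 (a subunit of NADH dehydrogenase) with 99.7% identity, had 12193 counts in the AZD7986 pool and 16892 in the vehicle pool, which was 50.2% and 50.3% of its pair.

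The copies that were less alike or incomplete did not share the counts evenly. Gm29216, which matches only the last part of mt-Co1 (cytochrome c oxidase subunit I) at 99.8% identity, had 56093 counts in the AZD7986 pool and 56670 in the vehicle pool, above the 43881 and 44171 of the gene. Gm13340, a second copy of mt-Co1 with 97.6% identity, had 20601 and 21080 counts in those pools. Gm13341, a second copy of mt-Co2 with 95.9% identity, had 9299 and 12250 counts. Both of the lesser copies share their end with the gene but fewer 50-base windows, 27.5% for Gm13340 and 36.0% for Gm13341. Gm28439 was identical to a stretch of mt-Nd4 in all of its windows, yet it had 972 counts in the AZD7986 pool and 1579 in the vehicle pool, against 35445 and 64645 for mt-Nd4. Its match ends 502 bases before the end of the mt-Nd4 transcript, and it shares bases with Gm10222, another pseudogene on the same strand. The part of either in its low count was not tested.

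**Figure D2:**
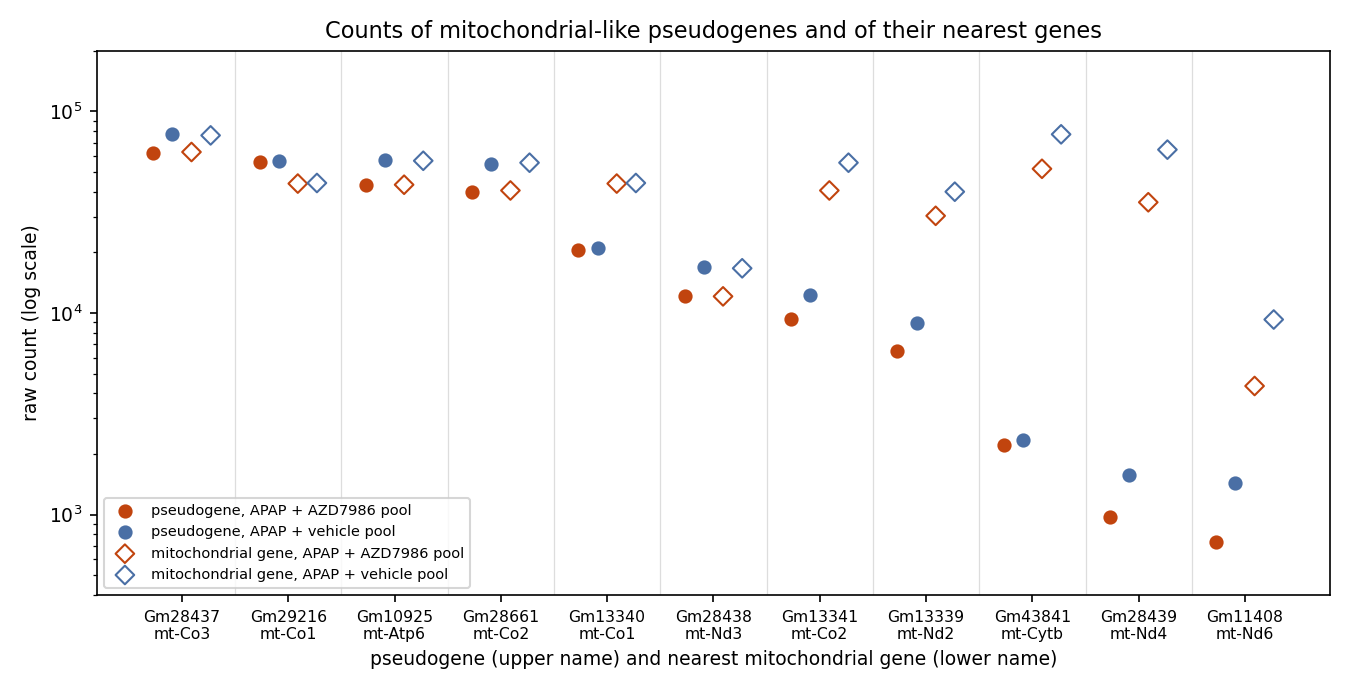
Raw counts (log scale) of the 11 members nearest to a mitochondrial-encoded gene (filled circles) and of that gene (open diamonds), with the AZD7986 pool in red left of the vehicle pool in blue, in order of the summed count of the member. Gm28437, Gm10925, Gm28661 and Gm28438 lie level with their genes in both pools, whereas Gm43841, Gm28439 and Gm11408 lie far below theirs.

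Between the pools, the interval of the difference between copy and gene held 0 in 6 of the 11 mitochondrial-like pairs, lay above 0 in 3 and below 0 in 2. The ratio was 0.978 for Gm28437 and 0.998 for mt-Co3, 0.913 for Gm10925 and 0.918 for mt-Atp6, 0.875 for Gm28661 and 0.879 for mt-Co2, and 0.871 for Gm28438 and 0.876 for mt-Nd3. The difference between copy and gene was at most 0.03 on the log2 scale in these pairs, and its interval held 0 in all of them except that of Gm28437 and mt-Co3 (-0.03, 95% interval -0.05 to -0.01). Among the other copies, Gm13339 had a ratio of 0.868 against 0.917 for mt-Nd2, Gm13341 one of 0.916 against 0.879 for mt-Co2, and Gm28439 one of 0.743 against 0.662 for mt-Nd4, and their intervals of the difference excluded 0. The copies of mt-Co1 stood apart from the others in the same direction as their gene, with ratios of 1.19 for Gm29216, 1.18 for Gm13340 and 1.20 for mt-Co1. The lowest ratio of all members was that of Gm11408, at 0.614 (95% interval 0.561 to 0.672), and its gene mt-Nd6 stood at 0.565. Gm43841, which is only 83.5% identical to mt-Cytb, the cytochrome b gene, parted from it, with a ratio of 1.14 against 0.814 for the gene. Summed over the 11 members the ratio was 0.988, with 3 intervals above 1 and 8 below, whereas the 13 mitochondrial protein genes summed to 0.866, with mt-Nd1, mt-Nd4 and mt-Nd6 the lowest. Of the 13, mt-Nd1, mt-Nd5, mt-Atp8 and mt-Nd4l were nearest to no member.

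Over all 200 members, no ratio reached the size by which a feature was called, that is at least 2 or at most 0.5 with an interval on the same side of 1. The count was 0 in both directions, against 1.46% of all 24377 features called higher in the AZD7986 pool and 2.02% called lower. Among the 1598 features with at least the summed count of the lowest member, 1152, the shares were 1.25% higher and 0.25% lower, so a list of 200 with none called lies close to what features of like count show. These 1598 features, here and below, include the 200 members themselves. The member ratios ran from 0.614 to 1.93 with a median of 0.28 on the log2 scale, beside 0.17 for the 1598 features of like count and -0.02 for all features with a summed count of at least 20. An interval above 1 was seen in 155 of the 200 members, or 77.5%, beside 56.1% of the 1598 features and 10.4% of all features. An interval below 1 was seen in 12 members, or 6%, beside 18.9% and 8.81% of those features. Without the 11 mitochondrial-like members the median was 0.30, with 152 intervals above 1 and 4 below. Together the members took 7.73% of the counts of the AZD7986 pool and 7.35% of those of the vehicle pool, a summed ratio of 1.11. Without scaling the summed ratio was 0.921 and the median log2 ratio 0.011, so the direction of the sum rests on the scaling. This sum follows the few mitochondrial-like members, since the 189 others summed to 1.26. By type, the median log2 ratio was 0.30 for the 171 processed, 0.24 for the 16 transcribed processed and -0.03 for the 13 unprocessed members, most of which are mitochondrial-like. Less counted pseudogenes lay to the same side, with a median of 0.32 for the next 200 in rank and 0.35 for the 1301 less counted pseudogenes that reached a sum of 20.

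**Figure D3:**
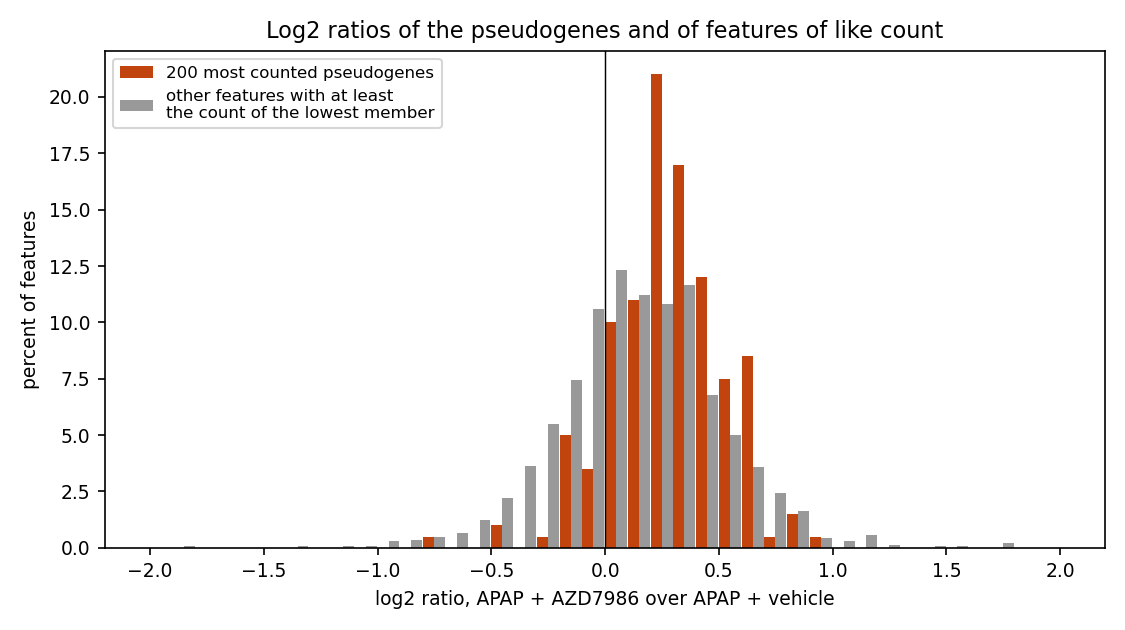
Percent of features (y axis) in each step of the log2 ratio of the AZD7986 pool over the vehicle pool (x axis) for the 200 members in red and for the other features with at least the summed count of the lowest member in grey. Most members lie to the right of 0, with a median of 0.28, and none lies past 1 in either direction.

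Ribosomal proteins build the 2 subunits of the cytosolic ribosome, and their pseudogenes made up most of the list. The 158 members nearest to such a gene took 3.15% of the counts of the AZD7986 pool and 2.68% of those of the vehicle pool. The 82 protein-coding ribosomal protein genes and close paralogs took 2.67% and 2.50% of those pools, a description only, since the members were chosen by count. Their summed ratio was 1.24 for the 158 members and 1.13 for the 82 genes, with medians of 0.28 and 0.16 on the log2 scale. An interval above 1 was seen in 125 of the 158 members (79.1%) and in 48 of the 82 genes (58.5%). One below 1 was seen in 2 of the members and 7 of the genes. The share above 1 was 77.5% over all 200 members and 56.1% over the 1598 features of like count. By symbol alone, 73 members carried the name of a ribosomal protein, and their median of 0.26 was close to the 0.29 of the 85 that only the sequence placed there.

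In several of these families the gene itself held the smaller part of the counts, which is given as a description of rows chosen for large counts. Rpl23a, of the large subunit, had 16 counts in the AZD7986 pool and 8 in the vehicle pool, while the 4 members nearest to it together had 3315 and 3249, and Rpl23a-ps3 alone had 987 and 994. Gm11478, which lies inside Vmp1 on the same strand at chr11:86630428-86631026, had 7922 counts in the AZD7986 pool and 6162 in the vehicle pool. Rpl13a, its nearest gene and a large-subunit gene, had 525 and 536 counts in those pools. Rps10-ps1 had 4496 and 4302 counts, whereas Rps10 had 949 and 1161. In each of the 3 cases the row of a pseudogene outranked the row of the gene in both pools. The 6 members nearest to Rpl10, another large-subunit gene, together held 71.7% of the counts of that gene and its copies, the 5 of Rps6 held 82.0%, the 4 of Rps25 80.8% and the 4 of Rps12 80.9%. A further 3 members of this kind were among the 15 most counted. Gm9794, nearest to Rpl23, had 4687 counts in the AZD7986 pool and 4390 in the vehicle pool, Gm5963, nearest to Rps21, had 4193 and 4460, and Gm10288, nearest to Rpl11, had 4503 and 3855. Each was counted more often in both pools than its nearest gene, which had 3126 and 3482 counts for Rpl23, 2279 and 2491 for Rps21, and 1552 and 1867 for Rpl11. The opposite was seen for Rplp1, of the ribosomal stalk, whose 2 members held 26.7%, and for Rplp0, of the same stalk, whose 2 held 24.7%.

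The families also differed in their ratios. The 4 members nearest to Rpl36 summed to 5330 counts in the AZD7986 pool and 4156 in the vehicle pool, a ratio of 1.55, and Rpl36 itself, with 1555 and 1172 counts, had one of 1.60. Rpl36-ps3 (1302 and 924 counts, ratio 1.70) and Rpl36-ps2 (1579 and 1206 counts, ratio 1.58) were thus among the 10 highest members beside a gene of a like ratio. The members nearest to Rps24, of the small subunit, summed to a ratio of 1.48, while the gene had 1.09. For Rpl13a the members summed to 1.54 and the gene had 1.18. Low ratios were rare. Rpl15-ps3 had 590 counts in the AZD7986 pool and 812 in the vehicle pool, a ratio of 0.877 (95% interval 0.787 to 0.976), beside 0.976 for Rpl15. Gm14165 had 681 and 915 counts, a ratio of 0.898 (95% interval 0.812 to 0.993), while its nearest gene Rplp0 had 1.26.

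For 76 members the symbol names a parent that is a row of the table, with 44 parents in all, and alignment found that same parent for 74 of them. The ratio of the member minus that of its parent, on the log2 scale, had a median of 0.12 and, apart from Rpl23a-ps3, whose parent has too few counts to be compared, ran from -0.28 to 0.58. The 95% interval of this difference, which does not depend on scaling, lay above 0 in 31 pairs, below 0 in 4 pairs and held 0 in 41. The 4 below were Cox7c-ps1, Rps19-ps7, Rpl18-ps1 and Rpl36-ps12. Pairs of the same parent share its counts and are not independent. When the pseudogenes of each parent were summed, 20 of 44 parents had an interval that excluded 0.

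The pairs farthest apart did not come from 1 kind of gene. Rpl39-ps had 804 counts in the AZD7986 pool and 741 in the vehicle pool, a ratio of 1.31, while Rpl39, a large-subunit gene, had 3344 and 4620 counts and a ratio of 0.874. Tpt1-ps3, whose own 519 bases are all identical to a stretch of Tpt1, had 1393 and 1069 counts, a ratio of 1.57. Tpt1 had 4251 and 4750 counts and a ratio of 1.08. Tpt1-ps6, with 990 and 761 counts, stood 0.54 above Tpt1 on the log2 scale, and Tpt1-ps5, with 711 and 571 counts, stood 0.48 above it. All 3 copies of Tpt1 were thus higher in the AZD7986 pool by more than the gene was. Rps24-ps2 had 2305 counts in the AZD7986 pool and 1788 in the vehicle pool, a ratio of 1.56, against 3032 and 3372 counts and 1.09 for Rps24. On the other side, Cox7c-ps1 had 1220 and 1593 counts, a ratio of 0.924, while Cox7c, of cytochrome c oxidase, had 1438 and 1542 counts and 1.13. The match with the aligned transcript of the gene ended before that transcript did, by 314 bases for Tpt1-ps3, 1176 for Rps24-ps2, 187 for Rpl39-ps and 2 for Cox7c-ps1. For Rps24 the distance depends on the transcript aligned, which had 1613 bases for Rps24-ps2. Gm6030, another copy of Rps24, was aligned with a transcript of 468 bases that ended 3 bases after the match. These libraries read 3′ ends, so the row of a gene can hold reads from sequence that the copy lacks. The part of this in the differences was not tested.

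The differences are given next by the share of sequence held in common. The 13 named pairs in which the parent or another gene holds every 50-base window of the member had a median difference of 0.13, the 44 with 50% to under 100% shared had 0.13 as well, and the 19 with less had 0.09. The correlation between the percent of windows shared and the size of the difference was -0.01 over the 76 pairs and -0.15 over the 200 pairs by sequence, and that between the log2 ratios of member and parent was 0.42 over the 76. These are descriptions across pairs, which share the 2 libraries and in part the parents.

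**Figure D4:**
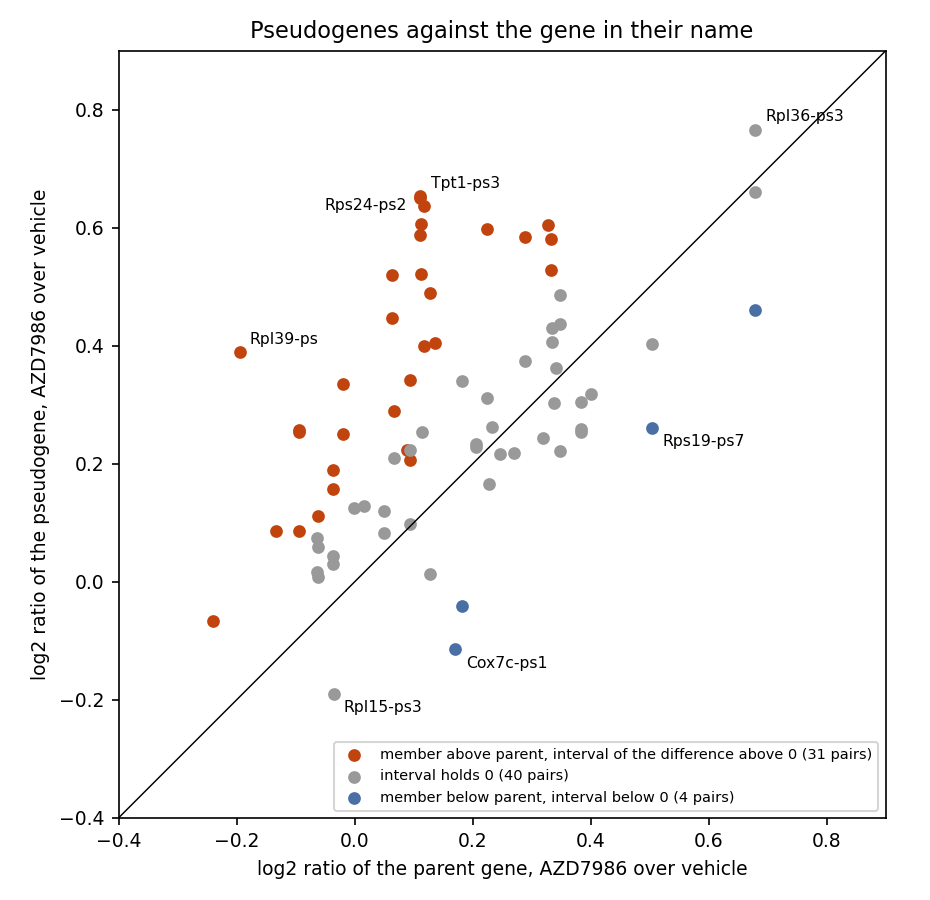
Log2 ratio of the AZD7986 pool over the vehicle pool for members (y axis) against that of the gene in their symbol (x axis), with the line of equality. Points are red where the 95% counting interval of the difference lies above 0 (31 pairs), blue where it lies below 0 (4 pairs) and grey where it holds 0; Rpl23a-ps3 is not drawn. More points lie above the line than below it, with Tpt1-ps3, Rps24-ps2 and Rpl39-ps among the farthest.

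The 31 members outside the mitochondrial and ribosomal groups held the 4 highest ratios, and their median was 0.43 on the log2 scale. Gm8566, the member with the highest ratio, had 3456 counts in the AZD7986 pool and 2165 in the vehicle pool, a ratio of 1.93 (95% interval 1.83 to 2.03). Its nearest gene, Sod1, which removes superoxide in the cytosol, had 13131 and 10310 counts and a ratio of 1.54. Gm12222, a copy of Dbi, the acyl-CoA binding protein gene, had 754 and 505 counts and a ratio of 1.80 (95% interval 1.61 to 2.02), while Dbi stood at 1.31. Both the copies and these genes were higher in the AZD7986 pool, the copies by more. Gm10250, a copy of the ATP synthase gene Atp5h, had 1313 and 903 counts and a ratio of 1.75, close to the 1.64 of the gene.

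Other members stood above a gene whose own ratio was nearer to 1. Gm43712 (1057 counts in the AZD7986 pool and 801 in the vehicle pool) had a ratio of 1.59, while Eef1b2, of translation elongation, stood at 1.05. Gm13835 (924 and 687 counts) had 1.62, while Psma3, of the proteasome core, stood at 1.17. All 685 bases of Gm13835 are identical to a stretch of Psma3. Gm10036 (836 and 624 counts) had 1.62, while Rpl11 had 1552 and 1867 counts in those pools and an interval of the ratio from 0.937 to 1.07. Cox6c2 (816 and 624 counts) had 1.58, while Cox6c, of cytochrome c oxidase, stood at 1.24. The largest contrast the other way, apart from the copies of Rpl23a, whose gene has hardly any counts, was Gm49138, of 93 bases, with 541 counts in the AZD7986 pool and 884 in the vehicle pool and a ratio of 0.739, against 1.08 for its nearest gene Rack1, of the small ribosomal subunit.

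**Figure D5:**
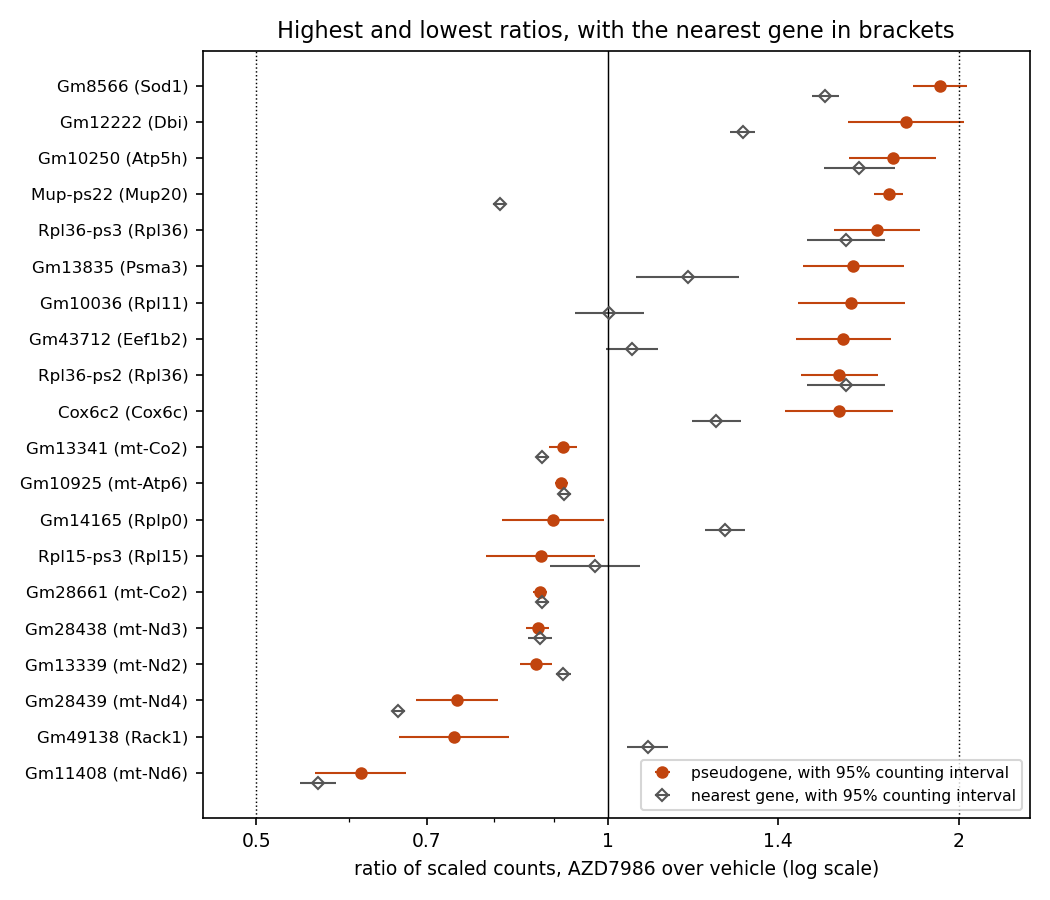
Ratio of the AZD7986 pool over the vehicle pool (log scale) for the 10 highest and the 10 lowest members whose interval excludes 1 (red circles) and for the nearest gene in brackets (grey diamonds), each with its 95% counting interval. Dotted lines mark 0.5 and 2, which no member passes; Mup-ps22, Gm10036 and Gm43712 lie far to the right of their gene, and Gm49138 far to the left of its own.

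Major urinary proteins are carriers of volatile signals that male mouse liver secretes in bulk, encoded by a cluster of very similar genes on chromosome 4. Mup-ps22, a processed copy on chromosome 11 (chr11:55123695-55123937), had 11436 counts in the AZD7986 pool and 7927 in the vehicle pool, a ratio of 1.74 (95% interval 1.69 to 1.79). Mup-ps19, an unprocessed copy at chr4:61957149-61959911, on the same chromosome as the Mup20 gene, had 3335 and 2656 counts, a ratio of 1.52. The nearest gene of both, Mup20, had 43250 and 64596 counts, a ratio of 0.808. The pseudogenes and their nearest gene thus lay on opposite sides of 1. The identity was 90.1% for Mup-ps22, with 24 mismatches, and 95.1% for Mup-ps19, with 0 mismatches and 1 gap. The 22 coding Mup genes together had a ratio of 0.909, with 5 intervals above 1 and 14 below. Mup21, with 1449 counts in the AZD7986 pool and 1067 in the vehicle pool, was the only one of the 22 with a ratio near those of the pseudogenes, at 1.64. Of the windows of Mup-ps22, 3.61% occur in a coding gene, and of those of Mup-ps19, 89.8%, spread over many Mup genes.

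Glutathione S-transferases of the pi class conjugate reactive compounds, among them products of APAP. Gstp-ps, inside Traf5 on the same strand at chr1:192073820-192074450, had 4874 counts in the AZD7986 pool and 5486 in the vehicle pool, a ratio of 1.07 (95% interval 1.03 to 1.11). Gstp1 had 5225 and 6168 counts and Gstp2 5180 and 6099, with ratios of 1.02 and 1.03. The 3 rows thus had nearly the same counts in both pools, and every 50-base window in the last 200 bases of Gstp-ps is shared with a coding gene. A further case, chosen after its values were seen, was Gm9843, identical over its length to Fau, the gene of a ubiquitin-like fusion with a small-subunit protein. It had 4494 counts in the AZD7986 pool and 3471 in the vehicle pool, a ratio of 1.56, and Fau had 3001 and 2510 counts and one of 1.44.

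The other members outside those groups, given here by the kind of their nearest gene and chosen after their values were seen, were mostly higher in the AZD7986 pool. Of the 7 members nearest to nuclear genes of the respiratory chain and ATP synthase, 6 had an interval above 1, and Cox7c-ps1 was the exception. This share of 85.7% stood beside 77.5% of all 200 members and 56.1% of the 1598 features of like count. The median of the 7 was 0.61 on the log2 scale. Gm14539, identical to a stretch of Atp5md, an ATP synthase gene, had 1247 counts in the AZD7986 pool and 988 in the vehicle pool, a ratio of 1.52 beside 1.47 for the gene. Gm11966, a copy of Atp5j of the same enzyme, had 896 and 910 counts, a ratio of 1.19 beside 1.36 for the gene. Ratios of copy and gene thus lay close for Gm14539, and the copy was the lower for Gm11966. Among copies of proteasome genes besides Gm13835, Gm3375 had 672 counts in the AZD7986 pool and 604 in the vehicle pool (ratio 1.34, beside 1.22 for Psmb5), and Gm4950 had 634 and 518 (ratio 1.48, beside 1.04 for Psmb3). Both copies of Hspa8, a constitutive chaperone gene, Gm15459 with 881 and 802 counts and Gm8355 with 861 and 775, were close to it, at 1.33 and 1.34 beside 1.24. Gm5526 and its gene lay on opposite sides of 1, with 684 and 654 counts and a ratio of 1.26 for the copy, and 1257 and 1771 counts and 0.857 for Myl6, a myosin light chain gene.

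Copies of genes for secreted liver proteins were found besides those of the major urinary proteins. Gm11212, an unprocessed pseudogene nearest to Orm1, the gene of an acute-phase glycoprotein, had 1682 counts in the AZD7986 pool and 1287 in the vehicle pool, a ratio of 1.58. Orm1 had 18522 and 19837 counts and a ratio of 1.13. Its identity of 83.3% with Orm1 was the lowest of the list, and Orm2 was nearly as close, at 83.2%. Only 1.23% of the 50-base windows of Gm11212 occur in another gene, and the coding gene that holds them is Orm2, not Orm1. Gm8893, an unprocessed pseudogene nearest to Serpina1a, a gene of the protease inhibitor alpha-1-antitrypsin, lies inside Serpina1b on the same strand. It had 3461 counts in the AZD7986 pool and 3929 in the vehicle pool, a ratio of 1.06 beside 1.16 for Serpina1a. The windows that it shares with coding genes spread over 5 of them, Serpina1a to Serpina1e. In ratio, Gm11212 was thus higher than Orm1 and Gm8893 lower than Serpina1a, both beside genes with far larger counts. The other genes of these families were not compared.

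At the edge of the list, the 3 members with the smallest summed counts were Gm19366 with 1167, Gm9354 with 1163 and Gm4950 with 1152. The 3 pseudogenes next in order and outside the list were Gm5879 with 1149, Gm10039 with 1146 and Rpl17-ps9 with 1144. The boundary thus fell within a continuous run of counts.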

How the data were processed

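The deposited file is a table of both liver libraries, from which the raw counts per gene were used, whole numbers of tag-deduplicated 3′ ends that the authors obtained with MACE, trimming, mapping to mm10 and HTSeq. The aligner, the annotation release, the use of strand and the treatment of reads that map to several places are details not given in the sources used here, and they bear on every pseudogene row. The labels name MACE-kit v.2, the study's methods the Rapid MACE-Seq kit. The authors' normalized values, fold changes and p-values, and 10 columns of other per-sample values, were not used. Rows without a type took 3.71% of the counts of the AZD7986 pool and 3.70% of those of the vehicle pool and could not be members.

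Counts were divided by DESeq2 1.42.0 size factors, with a count of 0 set to 1. Intervals are exact binomial (Clopper-Pearson, 95%) for ratios, and exact conditional odds ratio intervals for pairs, for counting error only. Computation was checked on simulated data. Nearest genes came from blastn 2.17.0 (E-value at most 1e-10, sense strand, protein-coding and mitochondrial rRNA transcripts of GENCODE M21), a search added after seeing the data. Of the identifiers, 1167 were not in that release. Alternatives were TMM (edgeR 4.0.16), library totals, raw counts, lists of 100 and 400, processed pseudogenes only, members without overlap, a stricter interval, 0.5 added to every count, and the members that are not mitochondrial-like. Named members were the 15 most counted, the 10 highest and 10 lowest ratios with an interval that excludes 1, those with a parent in the symbol, and those at the edge of the list. The others named were chosen after their values were seen. Members and lists were chosen with earlier results of these data known.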

Additional observations from a re-analysis of the deposited data

How the results depend on the processing

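No paired analysis was possible because each group has 1 library. The number of members called was 0 in both directions under every scaling, interval and choice of members tried, except that 2 were called higher in the list of the 400 most counted. The median log2 ratio of the members was 0.28, and it was 0.011 without scaling, where all features moved by -0.27, while by library total it was 0.20. The summed ratio, 1.11, was 1.05 by library total, 1.09 for the 100 and 1.13 for the 400 most counted, 1.26 for processed pseudogenes only, 1.09 for members that overlap no other gene, and 1.26 for members not mitochondrial-like. Without scaling it fell below 1, to 0.921 (the AZD7986 library is the smaller). The number of named pairs whose interval of the difference excluded 0 was 35 of 76, and it was 18 with the stricter interval and 20 of 44 with the pseudogenes of each parent summed. The median interval of a member spanned 0.13 to either side on the log2 scale. It is narrower for the most counted members, and no interval covers the spread between mice, which 2 pools do not show.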
